A study of Homo sapiens with 12 samples.

Results

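Cytosolic ribosomal protein genes were followed in HEK293T cells and in R1 cells, which are a HEK293T clone able to grow in medium that lacks methionine. The members were the genes whose symbol is RPL or RPS followed by a number, with or without a closing A or X, together with RPLP0, RPLP1, RPLP2 and RPSA. The name rule used no measured value and found 76 of the 23500 genes listed, 45 of the large ribosomal subunit and 31 of the small subunit; 1 further symbol that fits the pattern was not analysed here. Where a symbol had more than 1 row, the row with the highest summed count was taken, which was the case for 5 symbols, RPS9 and RPS18 among them.

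HEK293T is a human embryonic kidney line that needs methionine in its medium, whereas R1 also grows on homocysteine, from which cells can make methionine. RNA was sequenced after 12 h in medium with methionine (+Met) or with homocysteine and no methionine (−Met+Hcy), with 3 libraries in each of the 4 groups: HEK293T in +Met, HEK293T in −Met+Hcy, R1 in +Met and R1 in −Met+Hcy. All groups were grown in methionine-free base medium with dialyzed serum, vitamin B12, glutamine and cysteine, to which methionine or homocysteine was added. R1 is 1 clone, so a difference between R1 and HEK293T cells may be a property of that clone, and the labels give HEK293T as its cell line and R1 in the sample name. Nothing says that the libraries of a group came from separate cultures, so p-values measure the spread between these libraries.

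A human cytosolic ribosome holds a large subunit, which joins amino acids, and a small subunit, which reads the mRNA. Most ribosomal proteins are present once in each ribosome and are made in matched amounts. Their mRNAs are short, very abundant and usually begin with a C followed by a run of pyrimidines, the 5′ terminal oligopyrimidine (TOP) start, through which mTOR and the RNA-binding protein LARP1 set their translation and stability.

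The starts of 9 members are shown, since the TOP start is the sequence feature by which these mRNAs are known to be regulated together. They are 3 genes of the large subunit that fell in HEK293T cells, 3 genes of either subunit whose fold change there was near 0, and 3 genes of the small subunit with the largest decreases in R1 cells. They were chosen after the values were seen, among members that have an entry in RefSeq (GRCh38.p14) and a pyrimidine run at its start. Of the members called lower in HEK293T cells that have an entry, 6 had such a run and 7 had none, RPL17 among them. Where a gene had several entries, the start with the longest run is shown. Each window holds 10 bases before the annotated start and 20 from it, 5′ to 3′ on the strand of the gene. The pyrimidine run at the start is in capitals. In the order printed the windows lie at chr3:40457329-40457358 on the plus strand, chr3:101686699-101686728 on the minus strand, chr4:108620566-108620595 on the plus strand, chr12:120201092-120201121 on the minus strand, chr15:69452808-69452837 on the plus strand, chr3:39406710-39406739 on the plus strand, chr6:34426050-34426079 on the minus strand, chr6:132814559-132814588 on the plus strand and chr6:33272065-33272094 on the plus strand.
RPL14: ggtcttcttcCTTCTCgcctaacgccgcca
RPL24: atgattctctCTTTCTTTTCgccatctttt
RPL34: cttttttcttCCTCTTCCggggacgttgtc
RPLP0: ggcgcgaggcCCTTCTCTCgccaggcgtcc
RPLP1: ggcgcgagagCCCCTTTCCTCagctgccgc
RPSA: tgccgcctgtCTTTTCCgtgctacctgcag
RPS10: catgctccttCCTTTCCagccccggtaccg
RPS12: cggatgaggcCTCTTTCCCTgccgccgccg
RPS18: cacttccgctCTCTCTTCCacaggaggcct

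Of the 61 members with an entry, 45 (73.8%) had at an annotated start a C followed by at least 4 pyrimidines, against 1404 of 27305 genes (5.14%). A gene with several entries was counted if any of its starts had the run. The share was 27 of 37 genes of the large subunit and 18 of 24 of the small subunit. A match describes the letters at 1 annotated start, and no match says only that the letters are not at any start listed.

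The libraries held 12664158 to 18771349 counts each, and the least abundant member (RPS9) had a summed count of 29131, so all 76 members passed the filter on low counts. Levels are given as CPM, the estimated count of a gene scaled to a library sum of 1000000. Per 1000 bases of transcript, the highest mean levels over the 12 libraries were those of RPS2 (6186 CPM per kb), a protein at the mRNA entry of the small subunit, RPS3A (4651), RPL39 (4487), RPL8 (3620) and RPS10 (3528). The lowest were RPL37 (44.2 CPM per kb), RPL14 (85.6) and RPS9 (218). The annotated transcripts of RPL37 and RPL14 are 7573 and 7072 bases long, against a median of 624 over the members, and the counts of RPS9 are divided over several rows, so these 3 levels are understated.

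The labelled cell type was checked against its markers. All 8 markers of the HEK293 lineage (NEFL, NEFM, INA, PAX2, LHX1, KRT8, KRT18 and GATA3) had counts in each library, though PAX2 and LHX1 were as low as 0.205 and 0.411 CPM. The basal breast keratins KRT5, KRT6B and KRT16 were at 0 in the 12 libraries, KRT7 reached 0.0729 CPM, and EGFR lay between 2.57 and 19.1 CPM. Of the fibroblast collagens, COL1A2 reached 0.28 CPM, COL1A1 39.8 CPM and COL3A1 47.6 CPM, and the leukocyte gene PTPRC reached 0.823 CPM. In +Met, edgeR called 5 of the 8 lineage markers higher in R1 than in HEK293T cells and NEFM lower. Of the markers of other cell types, EGFR (log2 fold change 1.52, edgeR adjusted p = 0.0183) and COL1A1 (1.40, edgeR adjusted p = 0.028) were also called higher in R1 cells. Between media in HEK293T cells, KRT8 was the 1 lineage marker called, higher in −Met+Hcy (log2 fold change 0.97, edgeR adjusted p = 0.0461). The part of these markers in the differences between the lines and between the media was not tested.

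The third R1 library in −Met+Hcy stood apart from the others. Mitochondrially encoded mRNAs took 8.72% of its counts, against 2.38 to 5.24% in the other 11 libraries. Over 11542 genes, its deviation from the mean of the other libraries of its group correlated with GC content at a Spearman's rho of −0.74. The values were 0.60 and 0.72 in the other libraries of its group, which were compared with a mean that includes it. In the other groups they were −0.32 to 0.52. Among the members, RPL36A was at 3179 CPM in this library and at 468 and 399 CPM in the other R1 libraries in −Met+Hcy. RPL26 was at 3250 CPM against 830 and 673 CPM. RPL10 was at 176 CPM against 924 and 834 CPM, and RPLP1 at 237 CPM against 1201 and 811 CPM. Of the 76 members, 8 were more than 2-fold higher and 15 more than 2-fold lower in it than the mean of the other replicates, and the log2 ratio correlated with the GC content of the transcript at a rho of −0.60, a description over genes that share these libraries. The spread of all genes rests on this library: edgeR's common dispersion was 0.109 with it and 0.0349 without it. Counts of calls and the main values of R1 cells in −Met+Hcy are therefore given with and without it.

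**Figure D1:**
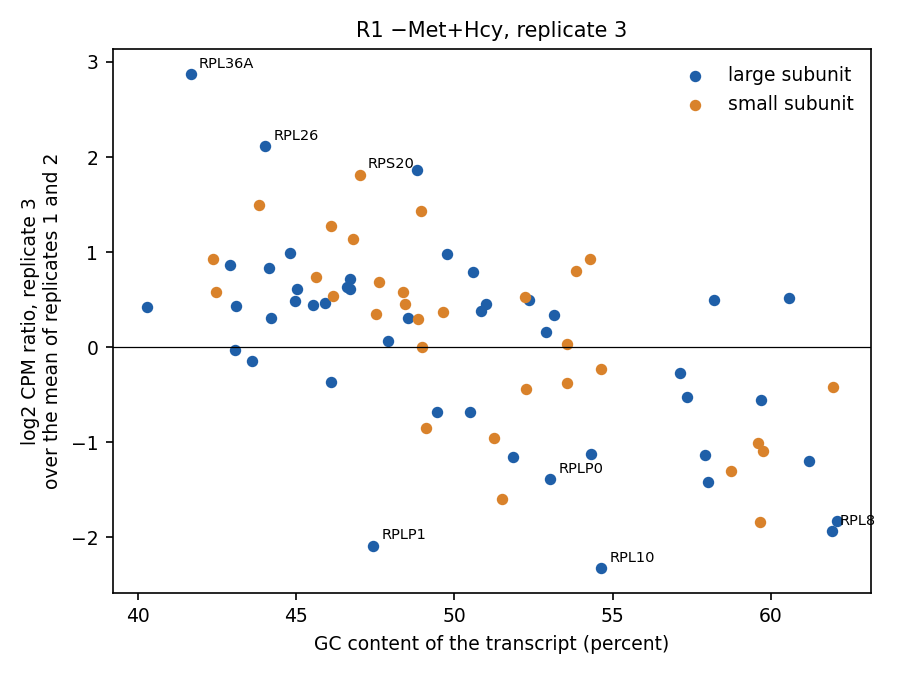
Log2 ratio of the CPM of each of the 76 genes in R1 −Met+Hcy replicate 3 over the mean of replicates 1 and 2 (y axis) against the GC content of its transcript in percent (x axis), with the large subunit in blue and the small subunit in orange. RPL36A (2.87) lies highest and RPL10 (−2.32) lowest, and the ratio falls from left to right.

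The first question was how large a part of the counts the members took in each group. In HEK293T cells the members took 15.4, 13.1 and 16.7% of all counts with methionine and 9.28, 11.1 and 13.1% with homocysteine. In R1 cells they took 6.54, 9.59 and 5.66% in +Met and 8.05, 6.13 and 8.20% in −Met+Hcy. The means were 15.1% ± 1.87 (SD, n = 3) and 11.1% ± 1.90 in HEK293T cells and 7.26% ± 2.06 and 7.46% ± 1.15 in R1 cells, and each R1 library lay below each HEK293T library in +Met. Without the third R1 library in −Met+Hcy the mean of that group was 7.09%. In −Met+Hcy medium the HEK293T libraries ranged from 9.28 to 13.1%, and the highest just overlapped the lowest in +Met. In bulk libraries, a lower level in every cell and a smaller share of cells with a high level cannot be told apart, and a share can also fall where other transcripts rise.

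By an exact two-sided permutation test, the difference between R1 and HEK293T cells in +Met had p = 0.1, the smallest that 3 against 3 libraries allow. The difference between media had p = 0.2 in HEK293T cells and p = 0.9 in R1 cells by the same exact permutation test. With library sizes scaled by edgeR's trimmed mean of M values (TMM), the HEK293T libraries in −Met+Hcy no longer overlapped those in +Met (8.55 to 13.2% of the scaled size against 14.8 to 20.1%) and p was 0.1 in the exact permutation test.

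The balance between the subunits differed as well. The counts of large subunit genes were 1.20, 1.27 and 1.16 times those of small subunit genes in HEK293T cells in +Met and 1.05, 1.05 and 0.998 times in −Met+Hcy. In R1 cells the ratios were 1.48, 1.34 and 1.57 in +Met and 1.29, 1.42 and 1.24 in −Met+Hcy. The ratio was thus lower in HEK293T cells in −Met+Hcy than in +Met and higher in R1 than in HEK293T cells in +Met, in both cases with no overlap between libraries (p = 0.1 each, exact permutation test). Between media in R1 cells the libraries overlapped (p = 0.2, exact permutation test). The mean ratio of R1 cells in −Met+Hcy was 1.32, and 1.36 without the third library.

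**Figure D2:**
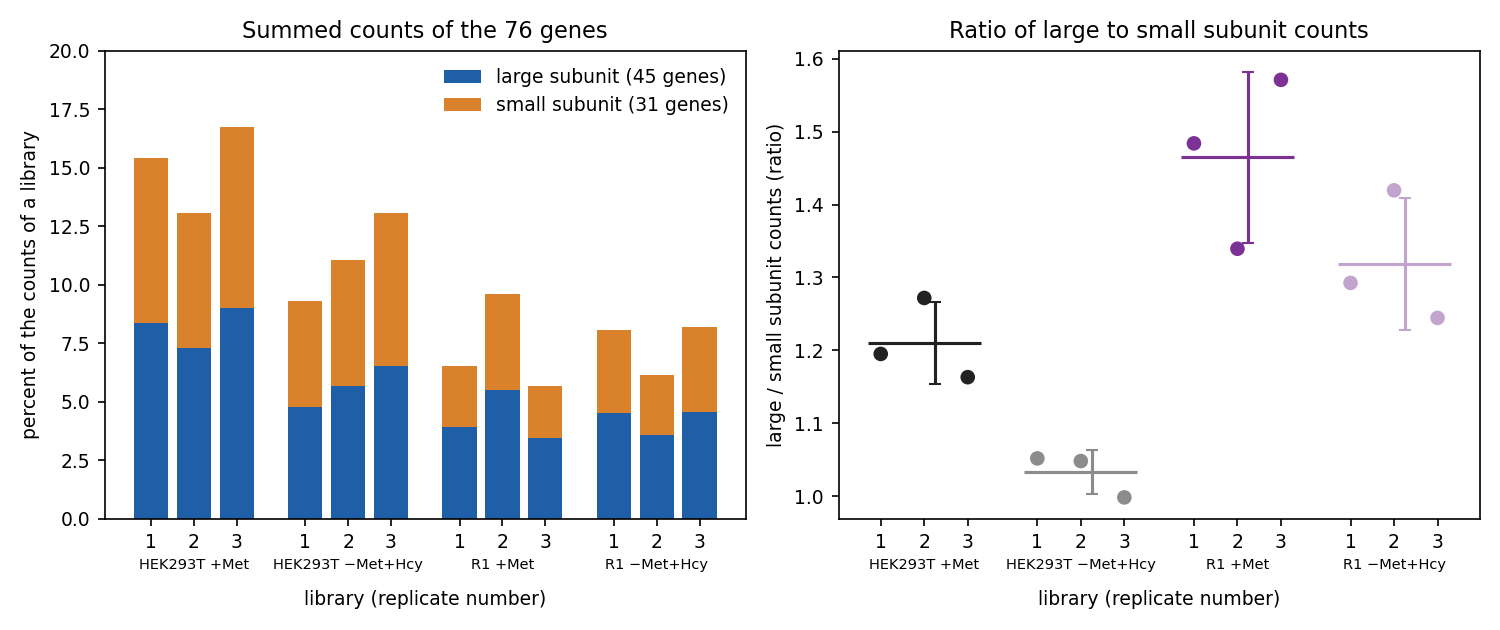
Left, percent of a library's counts that fell on the 45 large subunit genes (blue) and the 31 small subunit genes (orange), stacked from 0, for each of the 12 libraries. Right, the ratio of large to small subunit counts, each point a library, with the group mean as a line and the SD as a bar (n = 3). The 3 R1 libraries in +Met sit between 5.66 and 9.59%, all below the HEK293T libraries in +Met, and the ratio is lowest in HEK293T cells in −Met+Hcy.

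Other traits of the libraries were set beside these shares. Genes other than members with a transcript under 700 bases took 5.47% of the counts in HEK293T cells in +Met, 4.72% in −Met+Hcy, 4.47% in R1 cells in +Met and 5.004% in R1 cells in −Met+Hcy. Mitochondrially encoded mRNAs took 4.41, 2.92, 3.91 and 6.09% in the same order of groups. Without the third R1 library in −Met+Hcy the last group was at 4.60% for short transcripts and at 4.78% for mitochondrial mRNAs. Short transcripts moved with the members' share within groups, as the correlation of a library's deviation from the rest of its group with transcript length shows. In HEK293T cells this correlation was −0.34, 0.50 and −0.23 in +Met (replicates 1, 2 and 3, with shares of 15.4, 13.1 and 16.7%) and 0.48, −0.088 and −0.49 in −Met+Hcy (9.28, 11.1 and 13.1%). In R1 cells it was 0.33, −0.46 and 0.47 in +Met (6.54, 9.59 and 5.66%) and −0.24, 0.12 and 0.049 in −Met+Hcy (8.05, 6.13 and 8.20%). In each group the library with the highest value had the lowest share. With the trends in GC content and length removed from each library, the median log2 fold change over the members was −0.61 between media in HEK293T cells and −0.97 for R1 against HEK293T cells, against −0.76 and −1.51 without that step. The part of the mitochondrial share was not tested.

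In HEK293T cells, a group of ribosomal protein mRNAs fell after methionine was replaced by homocysteine. Of the 76 members, 17 were called lower and 0 higher at an adjusted p under 0.05 (edgeR, quasi-likelihood F test, p-values adjusted by the Benjamini-Hochberg procedure for 17162 genes), whereas 2.78% of all genes tested were called lower. All 17 belonged to the large subunit, of which 28 genes did not pass. The difference between the subunits in these fold changes was not tested, and DESeq2, which called 27 members (5.52% of all genes), also called RPS3, RPS7 and RPS23 of the small subunit. Of the 17 members that edgeR called, 14 fell by more than 1 on the log2 scale, against 1.59% of all genes. The median log2 fold change was −0.76 over the members (75 of 76 negative), −0.92 over the large subunit and −0.66 over the small subunit, beside 0.03 over all genes tested. After TMM scaling, 51 members (67.1%) were lower in each −Met+Hcy library than in any +Met library, of which 34 were of the large and 17 of the small subunit, against 20.6% of all genes tested.

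Among the 17 called members, the 5 with the largest decreases were RPL17, RPL14, RPL7, RPL34 and RPL5. RPL17, which lies at the exit tunnel through which the new protein leaves, was at 1933, 1493 and 2013 CPM in +Met and at 448, 519 and 704 CPM in −Met+Hcy. RPL14 was at 1083, 952 and 1221 CPM in +Met and at 349, 401 and 437 CPM in −Met+Hcy. RPL7 was at 1878, 1860 and 1979 CPM in +Met and at 729, 804 and 836 CPM in −Met+Hcy. For these 3 genes the lowest +Met library was above 2 times the highest −Met+Hcy library, and log2 fold changes were −1.99 ± 0.39 (SE) for RPL17, −1.75 ± 0.26 for RPL14 and −1.56 ± 0.23 for RPL7, with edgeR adjusted p = 0.0117, 0.00316 and 0.00315. Reads of RPL17 may be shared with the readthrough gene RPL17-C18orf32, so its value is uncertain.

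RPL34 was at 1227, 1120 and 1336 CPM in +Met and at 415, 508 and 653 CPM in −Met+Hcy (log2 fold change −1.51 ± 0.40, edgeR adjusted p = 0.0425). RPL5, which carries the 5S rRNA into the ribosome and can bind MDM2 when free, was at 3768, 3292 and 4305 CPM in +Met and at 1340, 1651 and 1911 CPM in −Met+Hcy (−1.50 ± 0.35, edgeR adjusted p = 0.0237). RPL11, its partner in the 5S particle, was at 773, 666 and 749 CPM against 456, 454 and 489 CPM and did not pass the test (log2 fold change −0.94, edgeR adjusted p = 0.0516). For both partners the 2 media were apart, with no library in between.

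The other 12 called members were RPL24, RPL23, RPL10A, RPL19, RPL4, RPL3, RPL7A, RPL30, RPL35A, RPL15, RPL6 and RPL28, with log2 fold changes from −1.38 (RPL24) to −0.92 (RPL28). Among them, RPL3, a protein close to the site where peptide bonds form, was at 2523, 2465 and 2450 CPM in +Met and at 1361, 1497 and 1517 CPM in −Met+Hcy (−1.06, edgeR adjusted p = 0.0184). RPL23, which faces the small subunit, was at 1229, 1174 and 1220 CPM against 529, 565 and 610 CPM (−1.38 ± 0.25, edgeR adjusted p = 0.00716). The replicates of these genes lay close together within each medium. RPL26, named after its values were seen, was at 2496, 2040 and 2708 CPM against 732, 822 and 1064 CPM, with a log2 fold change of −1.76, but did not pass the test (edgeR adjusted p = 0.0895). It is among the genes in which the third R1 library in −Met+Hcy stood apart, and it was called without that library (edgeR adjusted p = 0.0011).

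Members at the GTPase stalk, where elongation factors bind, had libraries that overlapped between the media. RPLP0, the base of the stalk, was at 4844, 4314 and 5211 CPM in +Met and at 4189, 5189 and 5825 CPM in −Met+Hcy. RPLP1 was at 1501, 1394 and 1608 CPM against 1403, 1826 and 1987 CPM. RPLP2 was at 662, 598 and 681 CPM against 562, 654 and 710 CPM. These 3 genes had log2 fold changes of −0.21, −0.08 and −0.30 with edgeR adjusted p-values of 0.764, 0.94 and 0.371. RPL41, the shortest protein of the ribosome, overlapped as well (675, 663 and 780 CPM against 633, 783 and 888 CPM, log2 fold change −0.17).

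In the small subunit, no member was called, while 10 of 31 were lower at an unadjusted p under 0.05, against 9.49% of all genes tested. RPS2 was at 7137, 5528 and 6476 CPM in +Met and at 7565, 8007 and 8243 CPM in −Met+Hcy, higher without overlap in CPM, with a log2 fold change after TMM scaling of 0.02. RPSA, on the back of the subunit near the mRNA exit, was at 3337, 3064 and 3534 CPM against 3270, 4209 and 4631 CPM (log2 fold change 0.00 at 2 decimals). RPS6, the substrate of the S6 kinases downstream of mTOR, was at 4541, 3779 and 5554 CPM against 2439, 2976 and 3836 CPM. The last gene had a log2 fold change of −0.87 and did not pass the test (edgeR adjusted p = 0.255).

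The other members of the small subunit chosen by role gave values in between. RPS3, at the mRNA entry, was at 3859, 2947 and 4266 CPM in +Met and at 1902, 2340 and 3090 CPM in −Met+Hcy. RPS27A, made as a fusion with ubiquitin, was at 2690, 2325 and 2964 CPM against 1442, 1748 and 2301 CPM. RPS26, at the mRNA exit, was at 736, 675 and 852 CPM against 415, 478 and 544 CPM. RPS19, the gene most often mutated in Diamond-Blackfan anaemia, was at 1545, 1199 and 1676 CPM against 1164, 1406 and 1650 CPM. In CPM, before TMM scaling, the media overlapped for RPS3 and RPS19 and not for RPS27A and RPS26. Log2 fold changes of −0.88, −0.83, −0.95 and −0.36 for RPS3, RPS27A, RPS26 and RPS19 did not pass the test.

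The number called depended on single libraries. Without the third R1 library in −Met+Hcy, which is in neither group compared, 38 members were called lower (28 of the large and 10 of the small subunit), against 12.5% of all genes. With the trends in GC content and length removed from each library, 35 were called lower (26 large and 9 small), against 9.15% of all genes, and the median was −0.61. Leaving out HEK293T +Met replicate 1, 2 or 3 left 3, 6 or 4 calls, while the share of all genes called lower fell to 0.666, 1.11 or 0.883%. Leaving out HEK293T −Met+Hcy replicate 1, 2 or 3 left 3, 3 or 5 calls, against 0.733, 0.429 or 0.786% of all genes. Leaving out R1 +Met replicate 1 left 10, against 1.73%. RPL7, RPL14 and RPL23 were called in each of the 12 fits that left out 1 library.

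**Figure D3:**
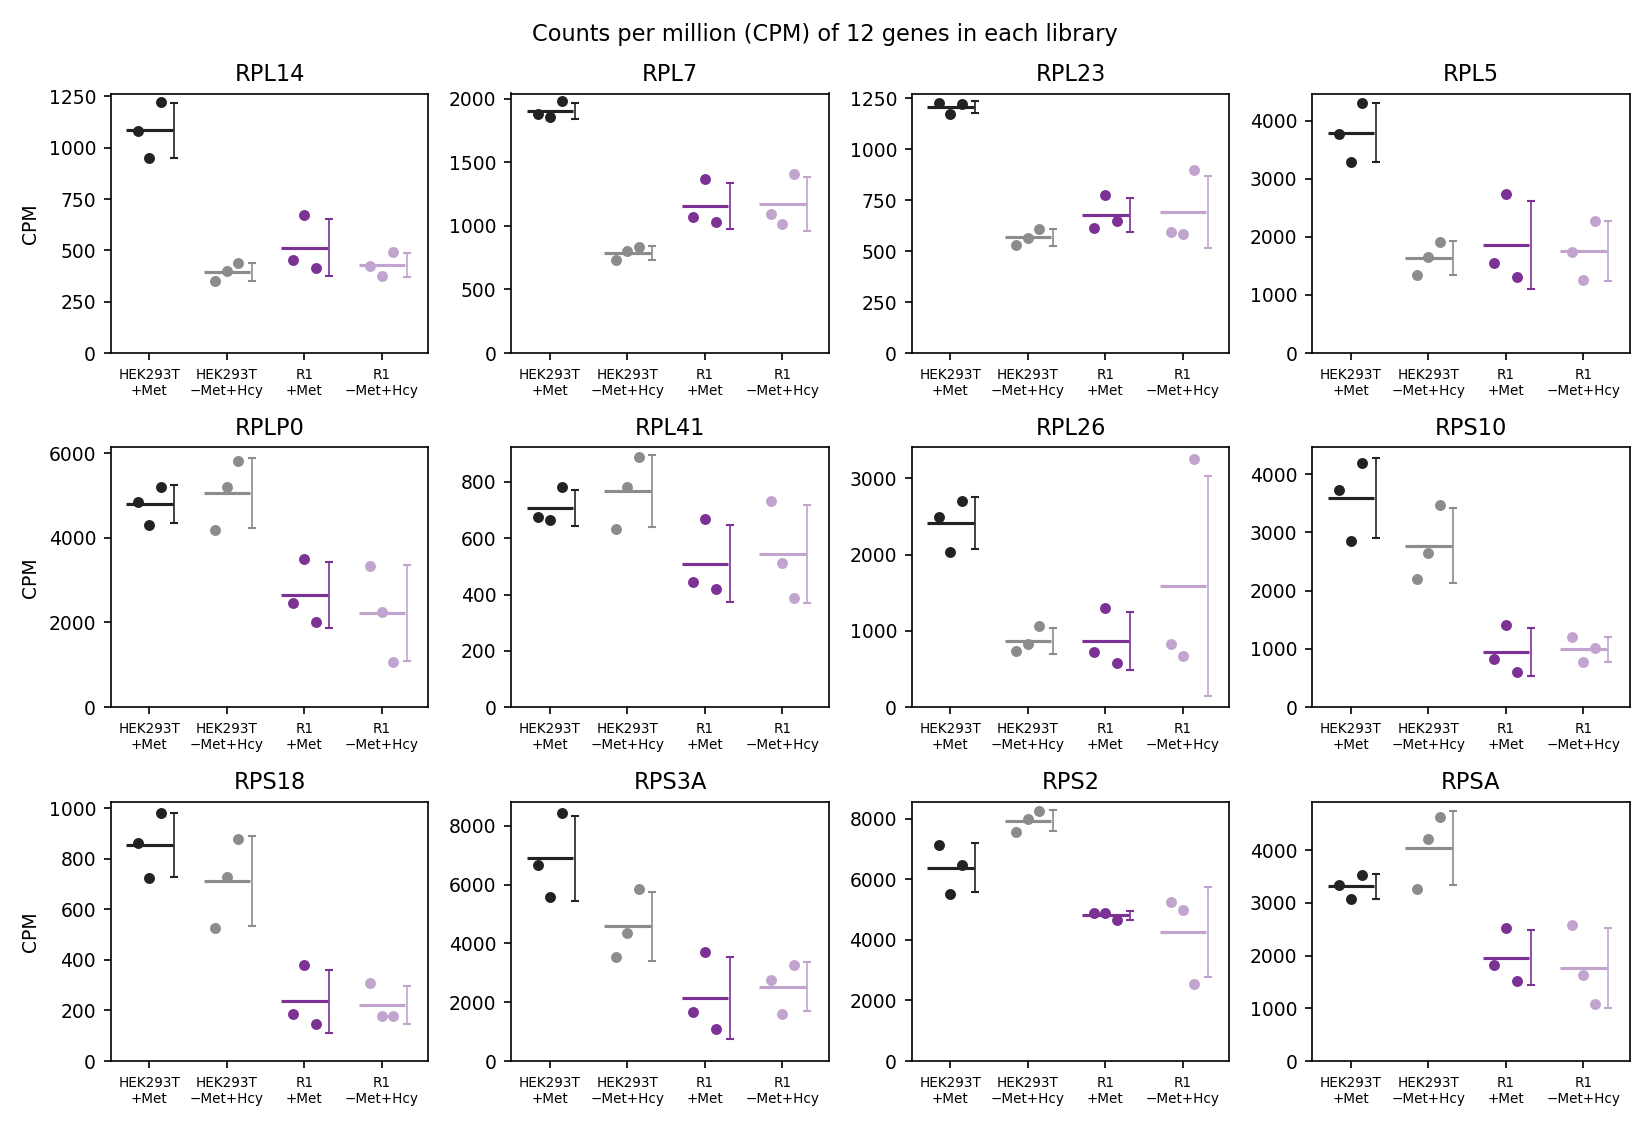
CPM of 12 genes (y axes from 0) in the 3 libraries of each group, with the mean as a line and the SD as a bar (n = 3). RPL14, RPL7, RPL23 and RPL5 are lower in HEK293T cells in −Met+Hcy than in +Met, and RPLP0, RPL41 and RPSA overlap between these media. RPS10, RPS18 and RPS3A have their lowest group means in R1 cells. For RPS3A the second R1 library in +Met (3718 CPM) lies above the first HEK293T library in −Met+Hcy (3526 CPM).

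In R1 cells, the same change of medium was not followed by a detectable change of the members. edgeR called 0 of 76 in either direction, with an unadjusted p under 0.05 for 3 higher and 1 lower (5.68% and 2.11% of all genes), and DESeq2 called 0. Only 0.00583% of all genes tested (1 of 17162) were called at all. The median log2 fold change was 0.09 over the members and −0.02 over all genes, with 46 members positive and 30 negative. After TMM scaling, RPL3 was the 1 member whose libraries did not overlap (1902, 2051 and 1790 CPM in +Met and 1625, 1653 and 751 CPM in −Met+Hcy), and no member was higher without overlap, whereas 5.8% of all genes tested were lower and 4.89% higher without overlap.

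Apart from RPL3, the members that fell in HEK293T cells had levels in R1 cells that overlapped between media. RPL7 was at 1073, 1369 and 1033 CPM in R1 cells in +Met and at 1095, 1013 and 1410 CPM in −Met+Hcy. RPL14 was at 453, 671 and 414 CPM against 422, 374 and 491 CPM. RPL5 was at 1557, 2730 and 1307 CPM against 1737, 1252 and 2280 CPM. The log2 fold changes of these 3 genes in R1 cells were 0.08, −0.20 and −0.02, and −0.18, −0.42 and −0.37 without the third R1 library in −Met+Hcy. Without that library the median over the members was −0.07, the range narrowed from −0.61 to 1.80 to −0.44 to 0.24, and 0 members were called.

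**Figure D4:**
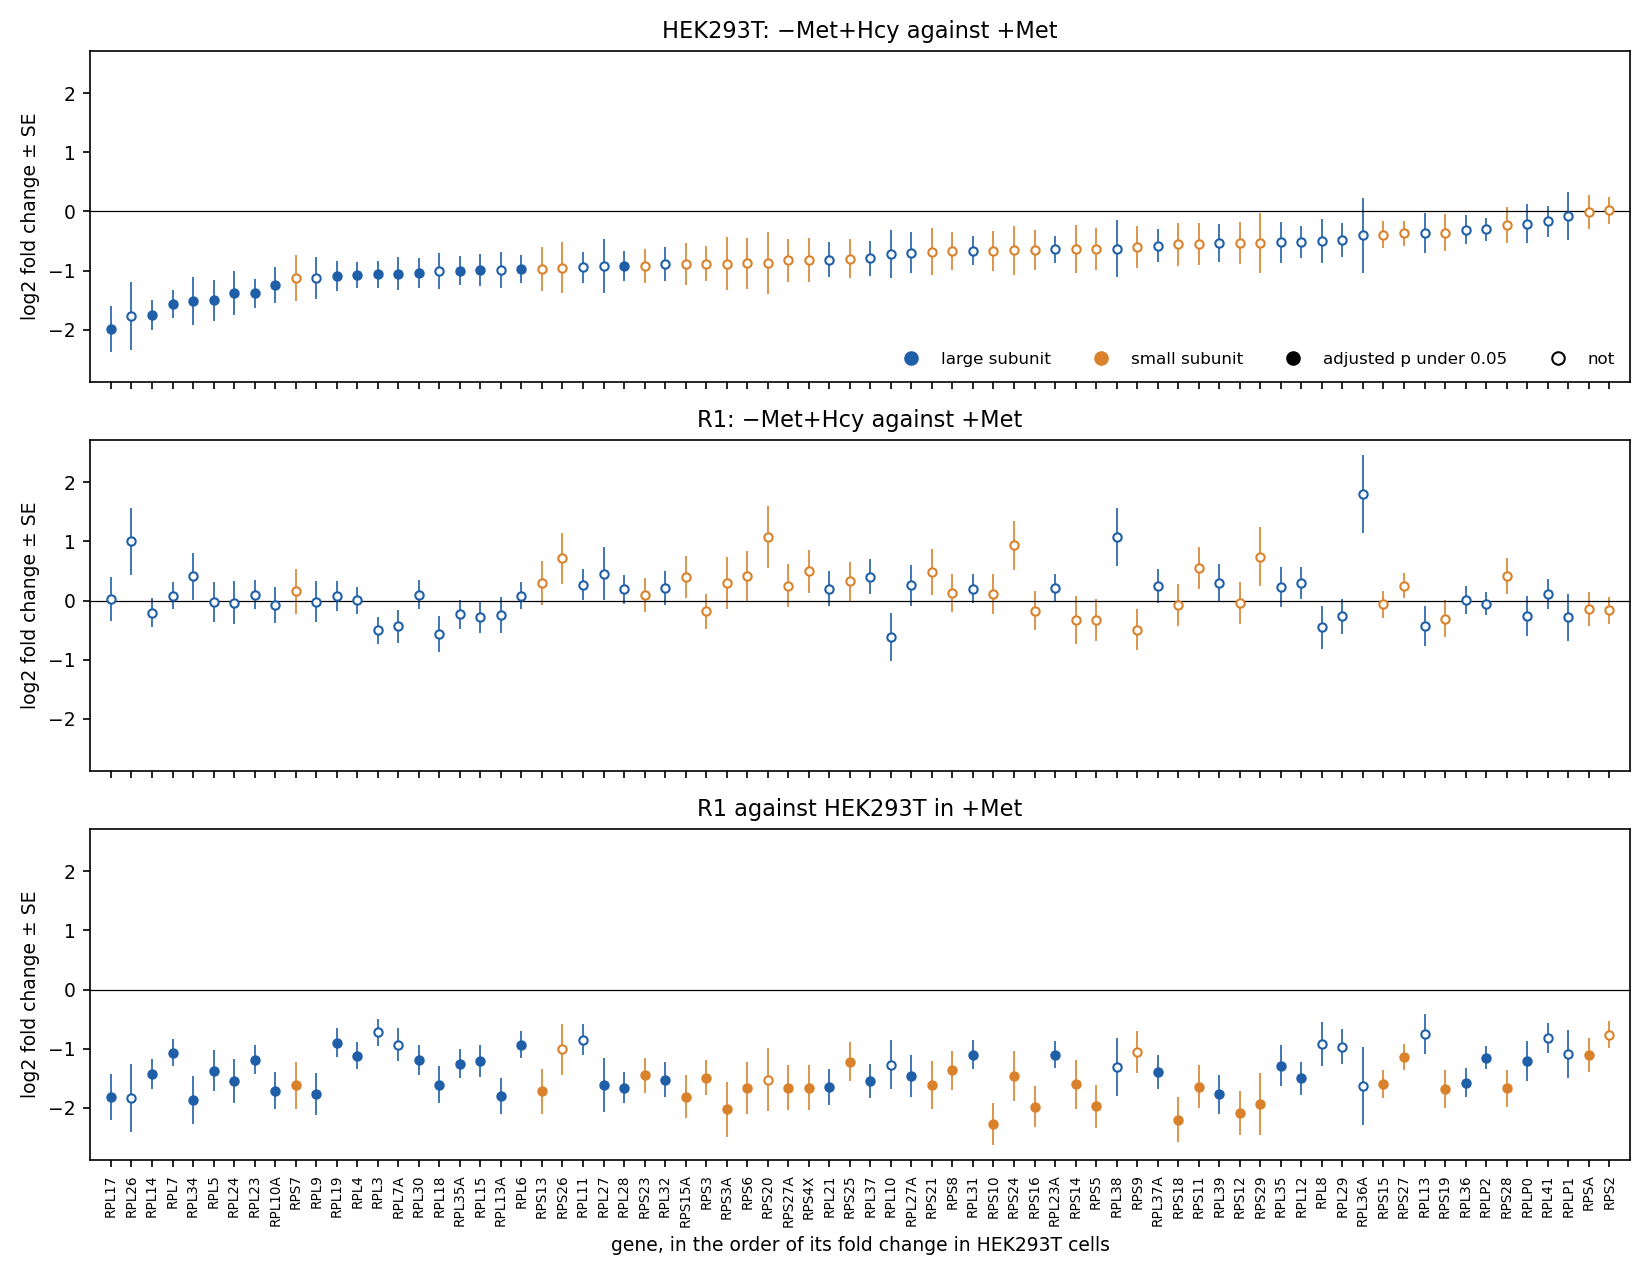
Log2 fold changes with their SE (y axes) of 74 of the 76 genes, ordered on the x axis by the fold change in HEK293T cells, for the 2 comparisons of media and for R1 against HEK293T cells in +Met. Blue marks the large and orange the small subunit, and filled points have an adjusted p under 0.05. In the top panel the 17 filled points are all blue, and in the middle panel none is filled. In the bottom panel 58 points are filled, of the 60 genes called in that comparison.

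The difference between the responses of the lines was tested as an interaction. At an adjusted p under 0.05, edgeR called 0 of 76 members, and 0.0583% of all genes tested were called in either direction. At an unadjusted p under 0.05, the response to the medium was higher in R1 than in HEK293T cells for 33 members and lower for 0. The shares of all genes were 4.62% and 5.05%. The median of the difference was 0.91 over the members and −0.06 over all genes, with 71 members positive, and the lowest adjusted p was 0.127 (RPL7, difference 1.64). DESeq2 called a higher response in R1 cells for 5 members (RPL7, RPL14, RPL17, RPL23 and RPL26), against 0.449% of all genes. Without the third R1 library in −Met+Hcy, edgeR called RPL7 and RPL23, against 0.398% of all genes, all 76 members were positive and the median was 0.73. The 3 stalk genes had differences of −0.05 (RPLP0), −0.21 (RPLP1) and 0.25 (RPLP2), and of 0.23, 0.19 and 0.33 without that library, in each case not called.

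In +Met medium, ribosomal protein mRNAs of both subunits were lower in R1 than in HEK293T cells. edgeR called 60 of 76 members lower and 0 higher, against 4.48% of all genes tested, and 58 were also past 1 on the log2 scale, against 2.95%. The calls covered 33 of 45 genes of the large subunit and 27 of 31 of the small subunit. The median log2 fold change was −1.51 over the members (a fold of 0.351), −1.31 over the large and −1.63 over the small subunit, beside 0.02 over all genes. After TMM scaling, the R1 libraries lay below the HEK293T libraries without overlap for all 76 members, against 20.7% of all genes. The +Met libraries of HEK293T cells enter both this comparison and that of media in HEK293T cells.

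The 5 largest decreases were all in the small subunit. RPS10, at the mRNA entry and ubiquitinated when ribosomes stall, was at 3723, 2844 and 4191 CPM in HEK293T cells and at 822, 1407 and 608 CPM in R1 cells. RPS18, in the head of the subunit near the bound tRNAs, was at 862, 725 and 979 CPM against 184, 379 and 148 CPM. RPS12, in the beak of the head, was at 2008, 1659 and 2304 CPM against 500, 917 and 380 CPM. In each of these the second R1 library was the highest of its group and was still below the lowest HEK293T library, and the log2 fold changes were −2.27 ± 0.35 (SE) for RPS10, −2.20 ± 0.38 for RPS18 and −2.08 ± 0.37 for RPS12 (edgeR adjusted p = 0.0023, 0.00403 and 0.00501).

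RPS3A was at 6686, 5569 and 8447 CPM in HEK293T cells and at 1655, 3718 and 1077 CPM in R1 cells (log2 fold change −2.02 ± 0.46, edgeR adjusted p = 0.0174). RPS16, whose tail reaches the tRNA in the P site, was at 1713, 1297 and 1979 CPM against 452, 797 and 362 CPM (−1.98 ± 0.34, edgeR adjusted p = 0.00423). The groups did not overlap for either gene. Counts of RPS18 are divided over several rows of identical sequence copies, and reads of RPS10 may be shared with the readthrough gene RPS10-NUDT3. With the rows of each symbol added up, 60 members were called as before.

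RPS2, the most abundant per length, was at 7137, 5528 and 6476 CPM in HEK293T cells and at 4896, 4883 and 4646 CPM in R1 cells and did not pass the test (−0.76, edgeR adjusted p = 0.0536). RPSA was at 1824, 2529 and 1519 CPM in R1 cells and was called (−1.11, edgeR adjusted p = 0.0321). RPS3, RPS6, RPS19 and RPS27A were called with log2 fold changes of −1.49, −1.66, −1.68 and −1.66, and RPS26 was not (−1.01, edgeR adjusted p = 0.165).

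In the large subunit, the stalk genes were lower in R1 cells. RPLP0 was at 2450, 3505 and 1999 CPM in R1 cells, RPLP1 at 835, 1144 and 724 CPM and RPLP2 at 343, 416 and 356 CPM. RPLP0 and RPLP2 were called (−1.20 and −1.15, edgeR adjusted p = 0.0412 and 0.00326), and RPLP1 was not (−1.09, edgeR adjusted p = 0.112). Of the 5S particle, RPL5 was called (−1.37, edgeR adjusted p = 0.0269) and RPL11 was not (−0.84, edgeR adjusted p = 0.0617). The smallest decreases over the members were those of RPL3 (−0.72), RPL13 (−0.76), RPS2 and RPL41 (−0.82), and none of these 4 genes was called. Of the other most abundant members per length, RPL39, a small protein of the exit tunnel, was called (−1.77, edgeR adjusted p = 0.00605) and RPL8 was not (−0.93, edgeR adjusted p = 0.137).

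Without the third R1 library in −Met+Hcy, all 76 members were called lower in R1 cells, against 15.7% of all genes. Leaving out HEK293T +Met replicate 1 or 3 left 35 or 33 calls, against 1.81 or 1.57% of all genes. Leaving out R1 +Met replicate 1 or 3 left 23 or 28 calls, against 1.15 or 1.39%. In each of the 12 fits that left out 1 library, 23 members were called, 13 of the large and 10 of the small subunit, among them RPL14, RPL36, RPLP2, RPS10, RPS12, RPS15, RPS16 and RPS18.

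The scale of these fold changes rests on TMM. The TMM factors of the HEK293T libraries in +Met were 0.828, 0.882 and 0.833, and those of the other 9 libraries lay between 0.93 and 1.12. With scaling by library totals the median over all genes rose to 0.33 in the comparison of media in HEK293T cells and to 0.37 for R1 against HEK293T cells, and the medians over the members were −0.47 and −1.16, which lie below those of all genes. The number called lower was then 12 and 52, against 1.24% and 2.08% of all genes. With library totals, 6 members had a positive fold change in HEK293T cells in −Met+Hcy, RPS2, RPSA, RPLP0, RPLP1, RPL41 and RPS28, and none of them was called.

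Properties that the rule did not use were set beside the fold changes, as descriptions over 76 genes that share these libraries. With GC content, Spearman's rho was 0.46 for the media in HEK293T cells, −0.52 for the media in R1 cells, 0.15 for R1 against HEK293T cells and −0.71 for the difference between the responses. The values that use R1 cells in −Met+Hcy rest in part on the third library: without it, rho with GC content was 0.12 for the media in R1 cells and −0.56 for the difference between the responses. With transcript length the 4 values were −0.16, −0.31, 0.20 and −0.10, and without that library the second and the last were −0.39 and −0.0046. Members with a pyrimidine run at an annotated start had a median of −0.66 in HEK293T cells (6 of 45 called lower). Those with an entry and no such run had −0.98 (7 of 16), against 2.78% of all genes called lower. For R1 against HEK293T cells the medians were −1.49 (34 of 45 called) and −1.60 (14 of 16), against 4.48% of all genes. The differences between members with and without the run were not tested.

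Ribosomal proteins that the name rule misses were followed beside the members. RACK1, a signalling scaffold on the small subunit, was called lower in R1 cells (−0.89, edgeR adjusted p = 0.0327) and not between media in HEK293T cells (−0.71, edgeR adjusted p = 0.0938). FAU, which encodes a small subunit protein as a fusion, was called in neither (−0.89 between media and −0.85 in R1, edgeR adjusted p = 0.06 and 0.0569).

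Of the 8 paralogs of ribosomal proteins, 7 were tested. RPL22L1 was at 437, 349 and 457 CPM in HEK293T cells in +Met and at 60.9, 68.5 and 92.7 CPM in −Met+Hcy. Its log2 fold change of −2.77 (edgeR adjusted p = 0.00704) was larger in size than that of any member. In R1 cells it was at 139, 272 and 101 CPM in +Met (−1.62 against HEK293T cells, edgeR adjusted p = 0.0483) and at 123, 116 and 308 CPM in −Met+Hcy. RPL39L was called lower in HEK293T cells in −Met+Hcy (−0.98, edgeR adjusted p = 0.0451) and RPS27L lower in R1 cells (−1.26, edgeR adjusted p = 0.0254). RPL7L1, RPL26L1, RPL36AL and RPL3L were called in no comparison, and RPL10L did not reach the minimum count.

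Other mRNAs known to carry a TOP start were followed as a list of 14, of which 8 of 9 with an entry had the run. In HEK293T cells 4 were called lower in −Met+Hcy (2.78% of all genes) and 0 higher: EIF3E (−1.87), EIF3F (−1.10) and EIF4B (−0.89), which act in translation initiation, and NPM1 (−1.51), a nucleolar chaperone. For R1 against HEK293T cells 4 were called lower (4.48% of all genes) and 0 higher: the elongation factor EEF1A1 (−1.67), EIF3E (−1.51), EIF3F (−0.62) and NPM1 (−1.33). EEF1A1 was at 16714, 16589 and 18350 CPM in HEK293T cells in +Met and at 6057, 9075 and 5496 CPM in R1 cells in +Met. The medians of the list were −0.75 between media and −0.70 between lines, with all 14 negative in both. None was called between media in R1 cells or for the difference between the responses. LARP1, which binds TOP starts, was not called in any comparison (0.28 and 0.13 in the comparisons of media in HEK293T cells and of the lines).

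Assembly factors, which escort single ribosomal proteins to the ribosome, were a list of 8. PDCD2, the chaperone of RPS2, was called lower in HEK293T cells in −Met+Hcy (−0.86, edgeR adjusted p = 0.024). HEATR3 (−0.55), which helps import RPL5, PDCD2L (−1.47) and LTV1 (−1.06), which acts on the head of the small subunit, were called lower in R1 than in HEK293T cells. The medians were −0.20 and −0.72. GRWD1, BCCIP, TSR2 and AAMP were called in neither comparison. The pseudogene RPSAP58, the only one listed that resembles a member, did not exceed 3.09 CPM and was not called, so reads of other processed pseudogenes cannot be told apart from those of the members.

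**Figure D5:**
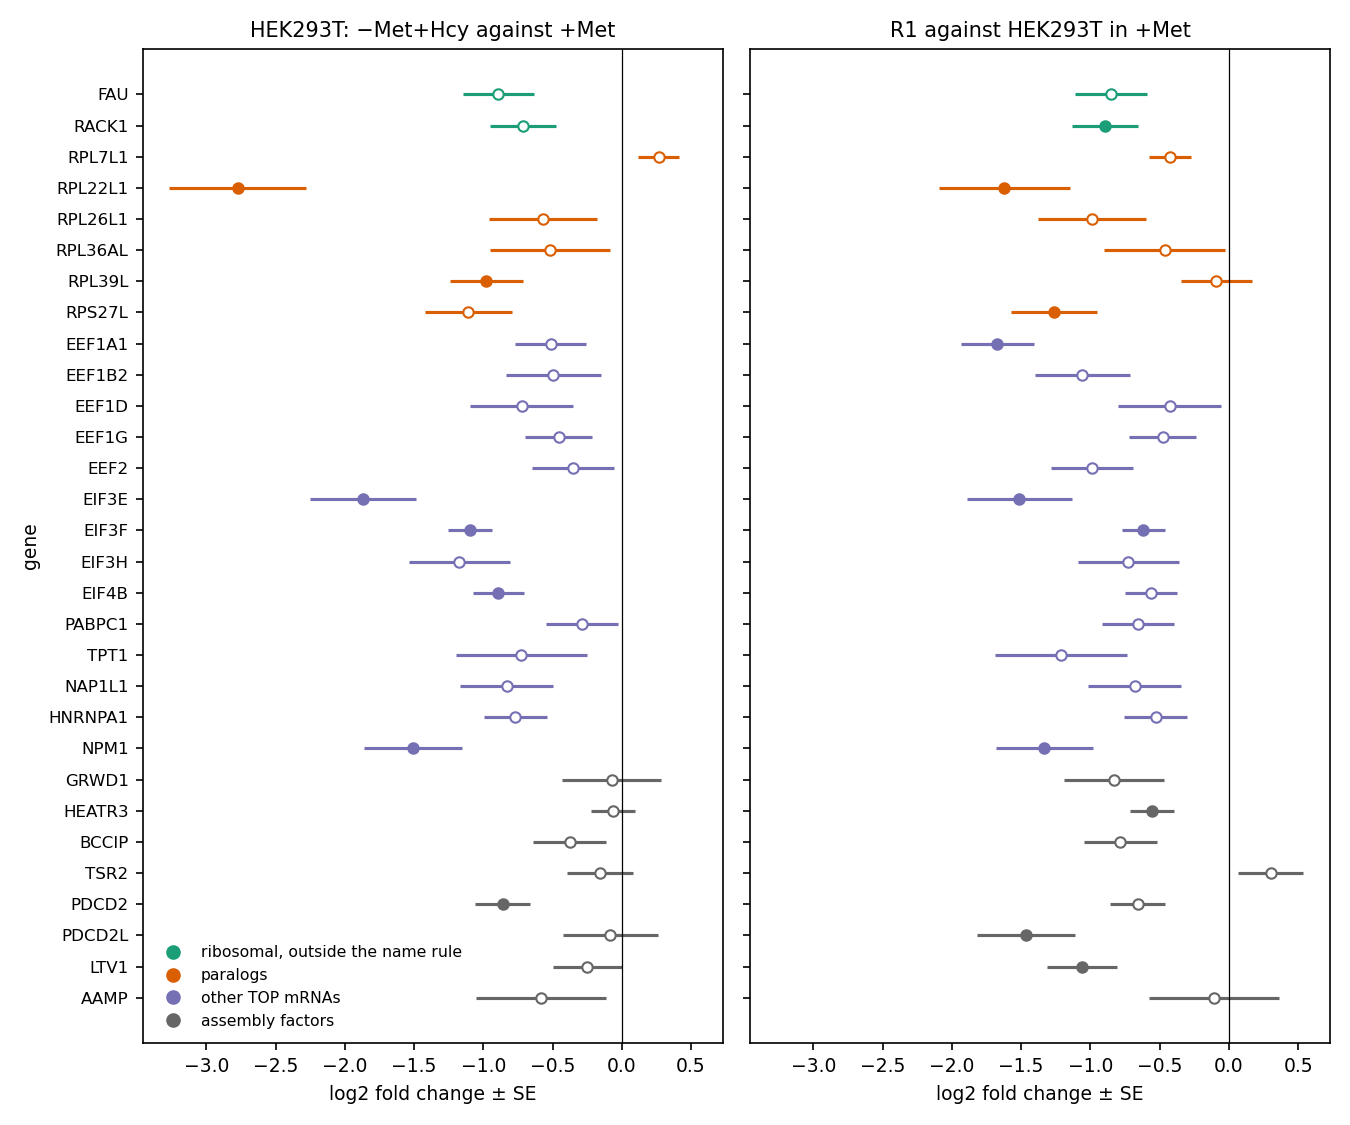
Log2 fold changes with their SE (x axes) of 2 ribosomal protein genes outside the name rule, 6 paralogs (RPL3L, at under 1 CPM, is not drawn), 14 other TOP mRNAs and 8 assembly factors, for the media in HEK293T cells (left) and for R1 against HEK293T cells in +Met (right). Filled points have an adjusted p under 0.05. RPL22L1 lies farthest to the left in the left panel at −2.77, and all 14 TOP mRNAs are below 0 in both panels.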

How the data were processed

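Reads of 12 libraries were quantified by the authors with kallisto 0.48.0 against GRCh38. The deposited values are estimated counts, which the authors added up by Ensembl gene and turned into whole numbers; no column was left out. Genes with a summed count under 10 were excluded, which left 17162. edgeR 4.0.16 (R 4.3.3) fitted a quasi-likelihood model with 4 group means and 8 residual degrees of freedom to these counts after TMM scaling. The Benjamini-Hochberg adjustment of p-values covered every gene in the model. The script was tested on simulated counts. Their spread was estimated without the third R1 library in −Met+Hcy (common dispersion 0.0349, against 0.109 with it). The larger spread of the 12 libraries was therefore not covered by that test. CPM was computed from column sums. Summed shares were compared by exact two-sided permutation tests in scipy 1.17.1. Transcript lengths and GC content come from GENCODE release 44 (the shortest transcript with a coding length within 10% of the canonical one), and starts from RefSeq. The removal of trends and the correlations use these lengths and GC contents. They include long annotated transcripts of RPL37 (7573 bases), RPL14 (7072), RPL27A (4535) and RPL4 (2741), against a median of 624 over the members. Libraries of 1 group differed by more than sampling noise in a chi-square test of their counts, so none was taken for a repeat deposit of another.

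The genes named are, in each comparison, the 5 called members with the largest change in each direction, the 5 highest and 3 lowest by level per length, and 12 chosen by role. The lists were ribosomal proteins outside the name rule, paralogs, other TOP mRNAs with LARP1, assembly factors, pseudogenes, snoRNA host genes (not analysed here, since no row was matched) and cell type markers. Some members, RPL23, RPL26 and RPSA among them, were named outside this rule. A few members and list genes were counted without being described singly. The members and lists were chosen with earlier results of these data known. Alternatives were DESeq2 1.42.0, other scalings and filters, a replicate block, removal of trends in GC content and length by loess, rows of a symbol summed, and each library left out in turn. Neither the labels nor the methods give a sequencing batch, so none was tested.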

Additional observations from a re-analysis of the deposited data

How the results depend on the processing

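No member had a called change that reversed under the alternatives run. In HEK293T cells, 27 members were called lower by DESeq2 (5.52% of all genes), 35 with the trends in GC content and length removed (9.15%), and 51 lower and 1 higher with these trends removed and R1 −Met+Hcy replicate 3 left out (17.7% and 19.1%), against 17 in the report (2.78%). Leaving out single libraries gave 3 to 38 calls there (0.429 to 12.5% of all genes) and 23 to 76 for R1 against HEK293T cells (1.15 to 15.7%). For the latter, the median moved from −1.51 to −1.16 with library totals, to −0.97 with the trends removed, and to −0.96 with the trends removed and that library left out. For the difference between the responses, 5 members were called higher by DESeq2 (0.449% of all genes), 9 with the trends removed (0.774%) and 25 with the trends removed and that library left out (3.6%). Leaving out single libraries gave 0 to 2 (0 to 0.398%). The median of the difference, 0.91 in the report, was 0.56 with library totals and 0.53 with the trends removed and that library left out. The log2 ratio of the summed shares moved with TMM library sizes from −0.44 to −0.73 for the media in HEK293T cells and from −1.05 to −1.40 for the lines. The causes were not tested. Each library held 12664158 counts or more, and no member had a summed count under 29131.

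Replicate numbers are shared between groups, but libraries with the same number did not deviate together: the correlations of their deviations ranged from −0.50 to 0.48, and not every library correlated best with its own number. With the replicate number as a block, 7 members were called lower in HEK293T cells (1.25% of all genes), 46 for R1 against HEK293T cells (2.59%) and 0 for the difference between the responses (0%).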
